A study of Mus musculus with 80 samples.

Results

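The 5 denervation and fibre stress genes, Cdkn1a, Ankrd1, Gadd45a, Runx1 and Hdac4, were followed through mouse tibialis anterior, a shin muscle made mostly of fast fibres. The list was fixed by gene symbol and held 7 names, and 5 of them had a row among the 10842 genes of the normalised table. Sln and Dclk1 were not analysed here. Expression was measured with the GeoMx mouse whole transcriptome assay, which counts barcoded probes cut loose by light within an outlined region of tissue. The study compared muscle carrying P301L tau, a mutant form of the microtubule-binding protein, with control muscle, in areas that differ in what they contain. All mice were C57Bl/6 with the labelled genotype WT, and all muscle was flash-frozen and cut at 8 micron. The sources used here state no ages.

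There were 12 animals. The 6 control animals gave 41 regions and the 6 tauopathy animals, called tau below, gave 39. Normal fibres were represented by 11 control and 9 tau regions, fibres with central nuclei by 11 and 11, nerve bundle by 9 and 9, and the area surrounding an artery by 10 and 10. Central nuclei were sampled in all controls but in 5 tau animals, since T30 lacked such a region. The name of the deposited data carries P301L together with AAV8, a viral vector, and no group separates the way of delivery from tau itself. In such areas fewer cells of a type and less RNA per cell cannot be told apart.

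The regions lay on 3 slides of 4 animals each, with 2 control and 2 tau animals per slide. Total counts recovered per region ran from 145488 to 3356106, with medians of 552840, 2248737 and 1292898 on slides 1, 2 and 3. The negative probe, which matches no gene and gives the background of the assay, had medians of 25.1, 46.2 and 34.1 on those slides. Depth and background both moved with treatment. Tau regions had a log2 total count 0.951 above control, as animal means (exact permutation test within slides over 216 assignments, two-sided p = 0.00926) and a log2 negative probe value 0.235 above it (same test, p = 0.0463). Tau lay above control in both on each of the 3 slides, and their part in the results below was not tested except through the settings named there. The labelled tissue was borne out by its markers: 10 of 10 muscle fibre genes were present, led by Acta1 at a mean signal of 32410 and Ckm at 28353. The labelled sex was not. On each slide the pair of animals with the higher Ddx3y and Eif2s3y, which lie on the Y chromosome, was compared with the labels, and 7 of 12 animals went against them, namely 6 of 6 controls and 1 of 6 tau animals. C30 was the sole labelled male of slide 1, so once both genes named the same pair a mismatch there was fixed in advance. Ddx3y ran from 57.8 to 71.0 in labelled-female and from 21.8 to 36.4 in labelled-male controls. Eif2s3y ran from 39.6 to 91.8 and from 9.66 to 18.8 in them. The mismatched tau animal, T13, read 60.2 and 76.2. Labelled sex was the covariate of the fits of tau against control all the same, and values without it are given for each gene.

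When a muscle fibre loses its nerve, electrical activity stops and a transcriptional programme switches on that acts through class IIa histone deacetylases, myogenin and a set of growth-arrest and atrophy genes. Hdac4 is a deacetylase of that class which moves into the nuclei of denervated fibres and relieves the repression of synaptic genes. Runx1 is a transcription factor known to be induced in denervated mouse muscle, where it limits wasting. Gadd45a is a stress-inducible nuclear protein that acts downstream of Hdac4 and Atf4 in denervated muscle, and Cdkn1a encodes the cyclin-dependent kinase inhibitor p21, a classical p53 target that is also raised by denervation. Ankrd1 encodes a muscle ankyrin repeat protein that binds titin at the sarcomere and is induced by stretch and injury.

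In mm10, Hdac4 lies on chromosome 1 from 91928779 to 92195702, Gadd45a on chromosome 6 from 67035096 to 67037407, Runx1 on chromosome 16 from 92601466 to 92826074, Cdkn1a on chromosome 17 from 29090979 to 29100722 and Ankrd1 on chromosome 19 from 36111965 to 36119844. Promoter windows of the 2 genes on which the results turn, from 250 bases before to 50 bases after the transcript start, are shown because members and their nearest genes are described together below. They are from RefSeq (GRCm38.p6, the assembly of mm10), written 5′ to 3′ on the strand of the gene. Capitals mark letters found by a search on both strands for 5 motifs chosen after the values were seen.
Cdkn1a, chr17:29090729-29091028, plus strand, the upstream of its 2 windows: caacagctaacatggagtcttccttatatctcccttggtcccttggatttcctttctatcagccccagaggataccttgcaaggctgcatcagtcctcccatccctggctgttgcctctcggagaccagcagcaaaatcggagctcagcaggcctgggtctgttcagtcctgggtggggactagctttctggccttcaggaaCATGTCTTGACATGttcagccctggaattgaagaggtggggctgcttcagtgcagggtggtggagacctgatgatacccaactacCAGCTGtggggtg
Ankrd1, chr19:36119795-36120094, minus strand: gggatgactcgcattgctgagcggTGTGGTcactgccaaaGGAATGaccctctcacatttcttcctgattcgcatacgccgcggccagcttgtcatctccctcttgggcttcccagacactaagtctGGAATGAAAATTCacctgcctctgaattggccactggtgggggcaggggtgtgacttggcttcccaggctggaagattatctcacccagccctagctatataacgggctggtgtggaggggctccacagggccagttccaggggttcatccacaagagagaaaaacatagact

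In the Cdkn1a window the capitals are CATGNNNNNNCATG, a pair of p53 half-site cores at 6 bases apart, read here as CATGTCTTGACATG from position 203, and CAGCTG, a myogenic E-box, from position 288. The first motif stood in 0.712% of 32851 mouse promoter windows and the second in 16.3%. In the Ankrd1 window they are TGTGGT, the RUNX core, from position 25, GGAATG, which is the TEAD motif CATTCC on the other strand, from positions 41 and 128, and GAAAATTC, a match to the heat shock element GAANNTTC, from position 133. The last of these shares its first base with the TEAD match before it. TGTGGT stood in 16.8% of all windows, CATTCC in 14.7% and GAANNTTC in 7.86%. CATTCC and TGTGGT were each also found in a Runx1 window, and no match to the 5 motifs was found in the windows of Gadd45a and Hdac4. A match describes letters in a window and is not a measured site.

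Read against the negative probe, the 5 genes ranged from clearly detected to background. Hdac4 lay above the negative probe in 80 of 80 regions, from 1.09 to 9.84 times it (median 2.56), and at 1.5 times or more in 75% of regions. Runx1 lay above it in 78 of 80 regions, with a median of 1.63 times and a range from 0.746 to 2.65. Cdkn1a was above it in 62 regions and had a median of 1.30 times, with a range from 0.562 to 2.76. Gadd45a was above it in 40 regions, with a median of 1.0 times and a maximum of 3.35. Ankrd1 was above it in 27 regions, with a median of 0.83 times, and reached 11.6 times in a single region. The recovered counts behind these values were small, from 3 to 297 for Cdkn1a, 3 to 231 for Gadd45a, 5 to 295 for Runx1, 9 to 269 for Hdac4 and 2 to 902 for Ankrd1. All 5 passed the filter used for testing (at least 1.5 times the negative probe in at least 10% of regions), but Ankrd1 did so with 12.5% of regions. Under a filter of 2 times in 50% of regions, which kept 3128 genes, Hdac4 was the member left.

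**Figure D1:**
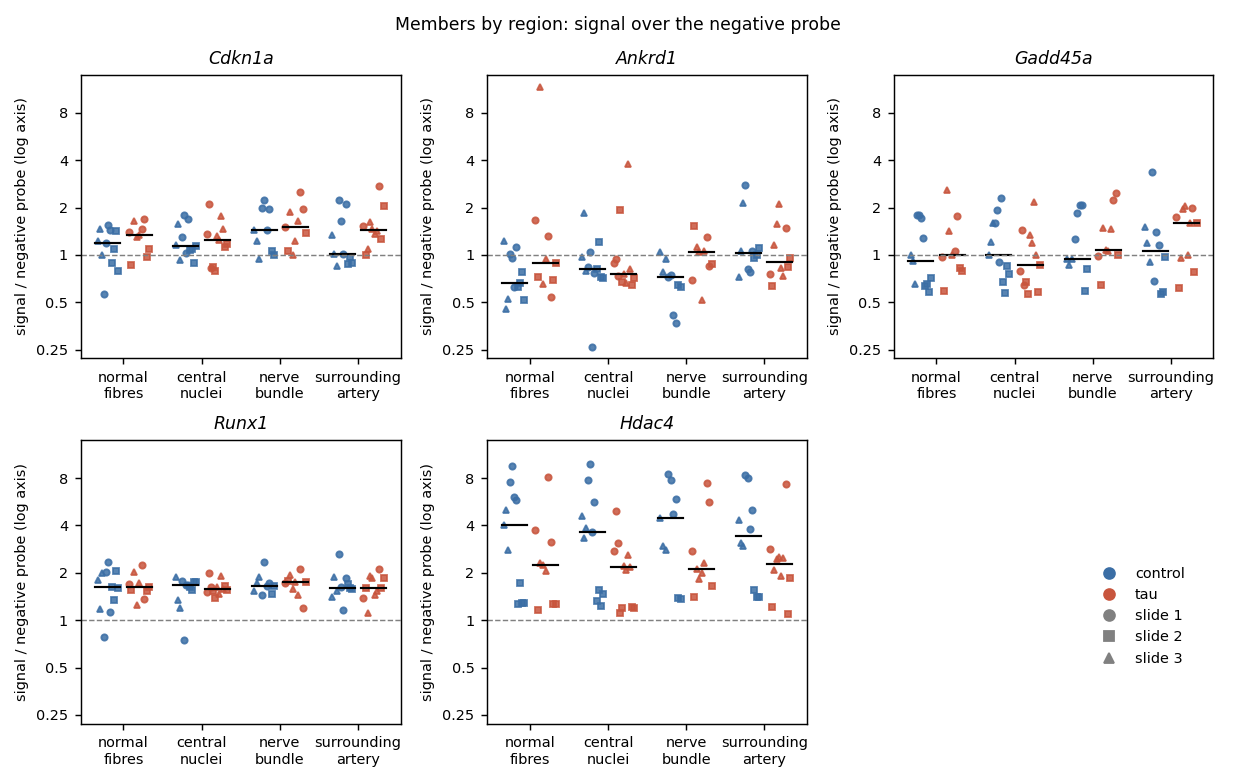
Signal divided by the negative probe of the same region (log axis) for the 5 genes in each of the 4 region types, with control in blue and tau in red, 1 point per region, the point shape giving the slide and the black bar the group median; the dashed line marks the negative probe. Hdac4 lay above the line in 80 of 80 regions and Ankrd1 in 27, with 1 tau region of normal fibres at 11.6 times the negative probe.

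Cdkn1a, the p21 inhibitor, gave the clearest order between tau and control animals. In the mean of the 3 region types that every animal had (normal fibres, artery and nerve bundle), its signal on slide 1 was 32.6 and 39.4 in the controls C2 and C30 and 47.9 and 51.9 in the tau animals T13 and T30. On slide 2 it was 46.5 and 42.5 in C3 and C40 and 49.5 and 60.1 in T14 and T7. On slide 3 it was 39.8 and 29.6 in C16 and C20 and 58.5 and 50.2 in T15 and T20. Every tau animal lay above every control animal, on a scale where 18 of 10188 genes (0.177%) had that order. Divided by the negative probe the groups overlapped, with tau animals at 0.972 to 2.19 times it and controls at 0.956 to 1.64 times.

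On the log2(signal + 1) scale the mean of Cdkn1a was 5.26 ± 0.25 in controls and 5.73 ± 0.12 in tau (SD, n = 6 each). The fitted difference was 0.47 ± 0.126 (SE), a fold of 1.38, with a 95% interval from 0.20 to 0.74, and it did not pass the limma test (adjusted p = 0.872, higher in 6 of 6 tau animals than in any control). That comparison called 0 of 10188 genes (0%), and 203 genes, 3 of the 5 among them, had an unadjusted p under 0.05. The median over all genes was itself 0.0993 toward tau. Without labelled sex the difference was 0.47 ± 0.12. With slide in place of labelled sex it was 0.47 ± 0.101 (adjusted p = 0.0638), and with both, a setting chosen after seeing the data, it was 0.46 ± 0.105 (adjusted p = 0.0635), neither passing the threshold of 0.05. By slide it was 0.49, 0.28 and 0.64. Divided by the negative probe it was 0.21 ± 0.185, and the median of all genes moved to -0.171. Relative to that median it was 0.38, against 0.37 in the main setting. Every gene of a region is divided by the same value, so apart from the pseudocount this match was fixed in advance.

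By region type, median Cdkn1a signal went from 37.5 in control to 45.7 in tau normal fibres, from 41.4 to 51.3 in fibres with central nuclei, from 42.4 to 54.1 in nerve bundle and from 36.7 to 54.0 around arteries. The tau animals were all above the controls in nerve bundle (lowest tau 5.72, highest control 5.65 on the log2 scale) and around arteries (5.54 against 5.49). Of all tested genes 28 (0.275%) had that order in nerve bundle and 12 (0.118%) around arteries. The fitted differences were 0.55 ± 0.142 around arteries (adjusted p = 0.980), 0.46 ± 0.167 in nerve bundle (0.837), 0.40 ± 0.185 in normal fibres (0.984) and 0.32 ± 0.144 in central nuclei (0.686), none of which passed. Without labelled sex they were 0.57 ± 0.137, 0.49 ± 0.166, 0.36 ± 0.187 and 0.34 ± 0.142 in the same order. In normal fibres the groups overlapped, and without control animal C2, whose Cdkn1a there stood at 4.40 against 5.17 for the next control, the difference was 0.22 ± 0.153.

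**Figure D2:**
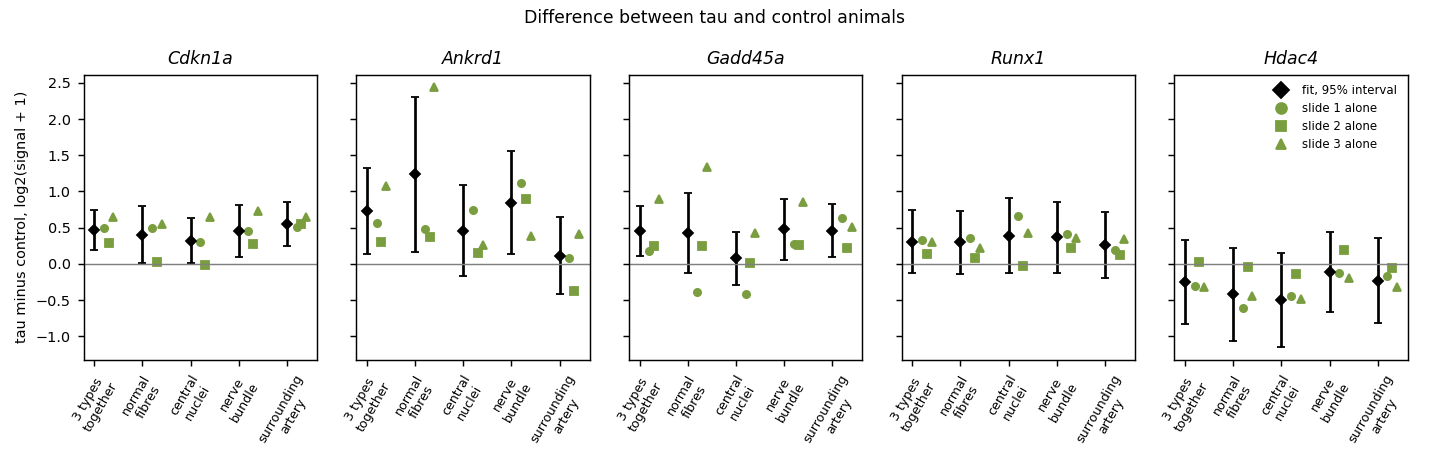
Tau minus control difference in log2(signal + 1) on the vertical axis for each of the 5 genes, over the mean of 3 types (normal fibres, artery, nerve bundle) and in each region type; black diamonds give the fitted value with its 95% interval and green points the unadjusted difference on each slide alone. The fitted Cdkn1a values lay above 0 and the fitted Hdac4 values below 0 in each, and slide 3 stood apart for Ankrd1 and Gadd45a in normal fibres, at 2.43 and 1.33.

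Ankrd1, the titin-associated stress protein, was at or below background in most regions of both groups. On slide 1 its mean signal over the same 3 types was 23.5 and 18.7 in C2 and C30 and 33.5 and 26.8 in T13 and T30. On slide 2 it was 35.6 and 33.7 in C3 and C40 and 48.9 and 38.0 in T14 and T7. On slide 3 it was 24.1 and 31.2 in C16 and C20, 28.3 in T20 and 183 in T15. On the log2 scale the tau animals lay above the controls of their own slide in 12 of 12 pairs, an order held on each slide by 497 genes (4.88%), Cdkn1a included, while across slides the groups overlapped. On slide 3 this rested on T20 at 4.852 against C20 at 4.842, and in mean signal T20 was the lower. Divided by the negative probe, the order held on slide 2. It did not hold on slide 1, with T13 at 1.04, T30 at 1.16 and C2 at 1.17 times the probe. Nor did it on slide 3, with T20 at 0.786, C16 at 0.826 and C20 at 1.02 times.

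The fitted Ankrd1 difference was 0.73 ± 0.273 (95% interval 0.14 to 1.32, adjusted p = 0.872), or 0.65 ± 0.231 with slide in place of labelled sex (adjusted p = 0.159). It rested in large part on T15: without that animal it was 0.42 ± 0.208 (adjusted p = 0.837). By slide it was 0.56, 0.30 and 1.08. In normal fibres the difference of 1.24 ± 0.501 (adjusted p = 0.984) became 0.47 ± 0.241 without T15. In nerve bundle it was 0.85 ± 0.330 (adjusted p = 0.837), with median signals of 23.7 in control and 35.3 in tau regions, or 0.719 and 1.05 times the negative probe. Around arteries it was 0.11 ± 0.247, with slide values of 0.08, -0.38 and 0.42 and tau above control in 5 of 12 pairs. Without labelled sex the differences were 0.65 ± 0.293 over the 3 types, 1.10 ± 0.521 in normal fibres, 0.80 ± 0.322 in nerve bundle and 0.04 ± 0.260 around arteries. The test of the difference between artery and normal fibres in the tau effect gave -1.05 ± 0.405 (adjusted p = 0.833) and did not pass, and it was -0.60 ± 0.307 without T15.

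The high Ankrd1 value came from 1 region, the single normal fibre region of tau animal T15 on slide 3. Ankrd1 read 443 there, from 902 recovered counts and at 11.6 times the negative probe of 38.1, while the other 19 normal regions ran from 15.2 to 52.7 with a median of 29.1. The total count of the region, 2168375, was the highest of its slide. T15's 8 other regions ran from 27.3 to 127, and its second highest was a region of central nuclei at 3.79 times the negative probe. Gadd45a was also above every other normal region in that region, at 98.3 against 20.4 to 57.1. Cdkn1a exceeded the others there by 0.11 on the log2 scale, and Runx1 at 76.7 and Hdac4 at 88.4 lay within the range of the others.

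**Figure D3:**
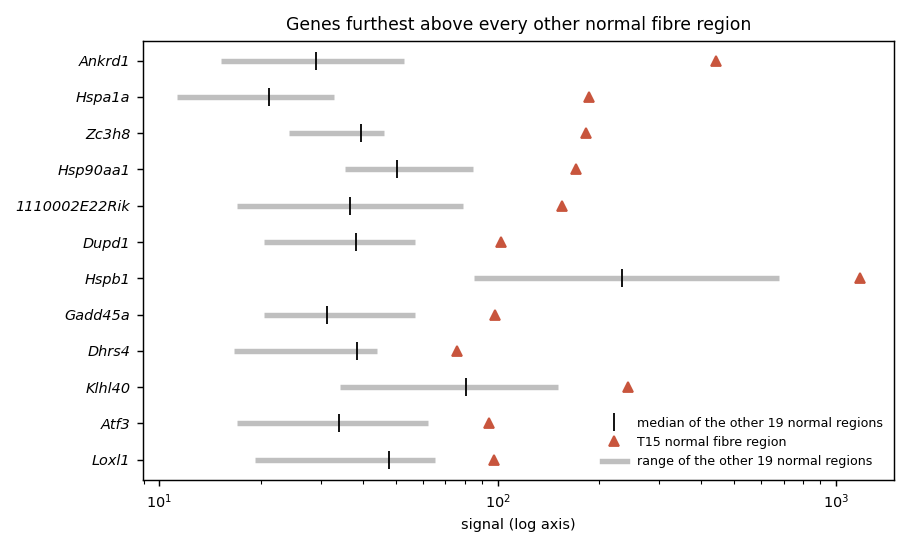
Signal (log axis) of the 12 genes that stood farthest above every other normal fibre region in the normal fibre region of tau animal T15 (red triangles); grey bars give the range and black ticks the median of the other 19 normal fibre regions. Ankrd1 read 443 in that region and at most 52.7 in the others.

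By labelled sex, Ankrd1 in normal fibres averaged 4.72 (4.56 to 4.97, n = 3) in labelled-female and 4.53 (4.27 to 4.79, n = 3) in labelled-male controls on the log2 scale. It averaged 5.06 (4.38 to 5.75, n = 4) in labelled-female tau animals, and the labelled-male tau animals T14 and T15 stood at 5.30 and 8.79. The authors' deposited table carries the tag "male normal fibers P<0.05" for Ankrd1 and for 21 genes in all, and no source used here states the test behind the tag. Ddx3y and Eif2s3y went against the labels of all 6 controls and of the labelled-female tau animal T13, which stood at 5.75 here.

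Gadd45a, the stress-inducible growth-arrest gene, had a mean of 5.04 ± 0.20 in control and 5.48 ± 0.35 in tau animals over the 3 types (SD, n = 6 each). Control animals ran from 26.8 to 39.9 in signal and tau animals from 31.5 to 71.3, so the groups overlapped, and tau was above control in 10 of 12 pairs within slides. The difference was 0.45 ± 0.162 (95% interval 0.11 to 0.80, adjusted p = 0.872) and 0.44 ± 0.141 with slide in place of labelled sex (adjusted p = 0.123). Slide values were 0.18, 0.24 and 0.90, and without T15 the fitted difference was 0.29 ± 0.138. Around arteries the median went from 33.8 in control to 49.2 in tau and in nerve bundle from 29.7 to 44.2, with differences of 0.46 ± 0.171 and 0.48 ± 0.194. In central nuclei the difference was 0.08 ± 0.173, and in normal fibres 0.43 ± 0.259, or 0.09 ± 0.188 without T15. The slides disagreed in sign in normal fibres, at -0.39, 0.24 and 1.33. Without labelled sex the differences were 0.44 ± 0.156 over the 3 types, 0.40 ± 0.252 in normal fibres, 0.06 ± 0.171 in central nuclei, 0.47 ± 0.185 in nerve bundle and 0.46 ± 0.163 around arteries. As times the negative probe, the control and tau region medians were 1.75 and 1.44 on slide 1. They were 0.653 and 0.729 on slide 2, and 0.967 and 1.38 on slide 3. The difference over the 3 types was 0.19 ± 0.321 after division by the negative probe, where the median of all genes was -0.171. Relative to that median it was 0.36, as in the main setting, a match that the division fixes as for Cdkn1a.

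Runx1 and Hdac4 followed the slides more than the treatment. Median Runx1 signal was 44.2, 75.1 and 59.1 on slides 1, 2 and 3, the order of their negative probes, and divided by the negative probe it was 1.68, 1.61 and 1.60 times. Median Hdac4 signal went the other way, 141, 60.3 and 90.7, and its level over the negative probe spanned 5.80, 1.29 and 2.52 times. Hdac4 was at 1.5 times the negative probe or more in 27 of 27 regions of slide 1, in 5 of 25 of slide 2 and in 28 of 28 of slide 3. Slide accounted for 72.7% of the variation of Hdac4 and 64.4% of that of Runx1 over the animal means by region type, against a median of 47.7% over genes, and for 17.5% of that of Ankrd1, 8.79% of Cdkn1a and 8.70% of Gadd45a. Treatment accounted for 43.1% of the variation of Cdkn1a, 20.7% of Gadd45a, 14.4% of Ankrd1, 11.6% of Runx1 and 5.79% of Hdac4, with a median over genes of 3.68%.

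**Figure D4:**
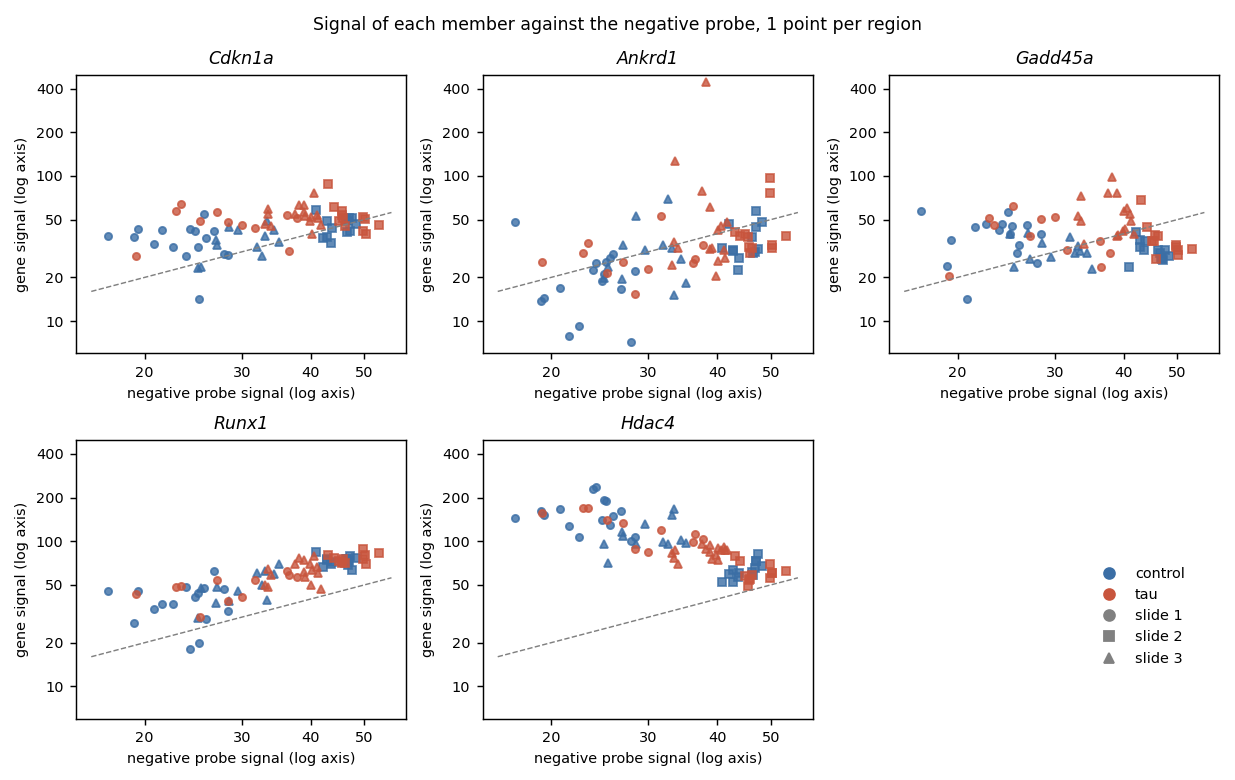
Signal of each gene (vertical, log axis) against the negative probe signal of the same region (horizontal, log axis), 1 point per region, with control in blue, tau in red and the point shape giving the slide; on the dashed line the gene equals the negative probe. Over all regions r was -0.824 for Hdac4 and 0.791 for Runx1 on the log2 scale, and within slide 2 it was 0.191 and 0.194.

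Hdac4, the activity-dependent deacetylase, was lower in value in tau. Its mean over 3 types on slide 1 was 174 and 130 in C2 and C30 and 101 and 149 in T13 and T30, and on slide 3 it was 124 and 88.6 in C16 and C20 and 86.9 and 79.1 in T15 and T20. On slide 2, where Hdac4 was nearest to background, it was 68.5 and 57.9 in C3 and C40 and 64.1 and 65.2 in T14 and T7. Groups overlapped, with tau above control in 3 of 12 pairs within slides, and the difference was -0.25 ± 0.270 (95% interval -0.84 to 0.33, adjusted p = 0.872). In normal fibres it was -0.42 ± 0.301, and with slide in place of labelled sex -0.36 ± 0.124 (adjusted p = 0.227). There it was -0.22 ± 0.299 without C2, -0.63 ± 0.285 without C3, -0.20 ± 0.331 with 1 region per animal and type, -0.16 ± 0.147 with the negative probe as a covariate and -0.06 ± 0.271 without the 13 regions whose upper quartile of counts was 30 or less. Without labelled sex it was -0.36 ± 0.300 there and -0.20 ± 0.272 over the 3 types. With labelled sex and slide together, the setting chosen after seeing the data, 50 genes passed in normal fibres (0.491%; 5 higher and 45 lower in tau) and 1 gene in central nuclei (0.00982%), and no member was among them, the lowest adjusted p of the 5 in normal fibres being 0.151 for Hdac4. Hdac4 correlated with the log2 negative probe at r = -0.824 and Runx1 at 0.791 over the 80 regions, which share slides, animals and depth, against a median of 0.374 over genes. Within slides 1, 2 and 3 it was -0.529, 0.191 and -0.286 for Hdac4 and 0.363, 0.194 and 0.701 for Runx1. With the negative probe as a covariate the Hdac4 difference over 3 types was 0.08 ± 0.097, and without those 13 regions it was 0.13 ± 0.276.

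Runx1, the transcription factor, had a mean of 5.71 ± 0.43 in control and 5.96 ± 0.36 in tau animals (SD, n = 6 each). Its median signal by slide went from 39.3 in control to 49.4 in tau regions on slide 1. The same pair of medians was 74.5 and 75.9 on slide 2, and 48.0 and 62.5 on slide 3. Tau was above control in 11 of 12 pairs within slides over the 3 types, and on each slide in nerve bundle, an order that 365 genes (3.58%), Cdkn1a included, had there and 279 genes (2.74%), again with Cdkn1a, had around arteries. The difference was 0.31 ± 0.202 (adjusted p = 0.872), or 0.26 ± 0.093 with slide in place of labelled sex (adjusted p = 0.163). Over the negative probe the control and tau medians were 1.68 and 1.70 times on slide 1, 1.63 and 1.60 on slide 2 and 1.63 and 1.60 on slide 3. Without labelled sex it was 0.26 ± 0.209. Divided by the negative probe the fitted difference was 0.04. Relative to the median of all genes it was 0.21, as in the main setting, a match that the division fixes as for Cdkn1a. With the negative probe as a covariate it was 0.04, or -0.001 relative to the median of all genes.

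Across the 4 region types, no member passed in any of the 6 pairwise comparisons within animals. The Cdkn1a mean was 5.55 ± 0.36 in nerve bundle, 5.53 ± 0.36 around arteries, 5.47 ± 0.27 in central nuclei (n = 11 animals) and 5.40 ± 0.38 in normal fibres (SD between animals, n = 12 otherwise). Within animals, nerve bundle minus artery was 0.02 ± 0.075, central nuclei minus artery -0.01 ± 0.073 and central nuclei minus normal fibres 0.06 ± 0.088 (SE). The nerve bundle minus normal difference of Cdkn1a was 0.15 ± 0.104 (adjusted p = 0.806), where 1 of 10188 genes (0.00982%) passed, and the artery minus normal difference 0.13 ± 0.098 (adjusted p = 0.560), where 35 genes (0.344%) passed. Ankrd1 stood at 5.17 ± 1.22 in normal fibres, 5.13 ± 0.49 around arteries, 5.02 ± 0.58 in central nuclei and 4.81 ± 0.74 in nerve bundle, and its nerve bundle minus normal difference was -0.36 ± 0.262 (adjusted p = 0.807), with slide values of -0.68, 0.27 and -0.68. This order rested on T15: without it the mean in normal fibres was 4.84 ± 0.44 (SD, n = 11), the nerve bundle difference was -0.09 ± 0.178, and central nuclei and artery stood above normal fibres by 0.07 ± 0.157 and 0.22 ± 0.162. Gadd45a was highest in mean around arteries (5.35 ± 0.36) and lowest in normal fibres (5.21 ± 0.53). Runx1 spanned 5.80 to 5.86 and Hdac4 6.51 to 6.59 over the 4 types. Region type accounted for at most 3.24% of the variation of any member, against a median of 2.75% over genes. The other 4 pairs and the 3 tests of the tau effect between types called 0 genes (0%), with 291 to 723 genes and 322 to 644 genes respectively at an unadjusted p under 0.05. Among those tests the tau effect on Gadd45a in central nuclei minus normal fibres was -0.41 ± 0.185 (adjusted p = 1.0; -0.28 ± 0.192 without T15) and that on Hdac4 in nerve bundle minus normal fibres 0.32 ± 0.151 (adjusted p = 0.752).

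**Figure D5:**
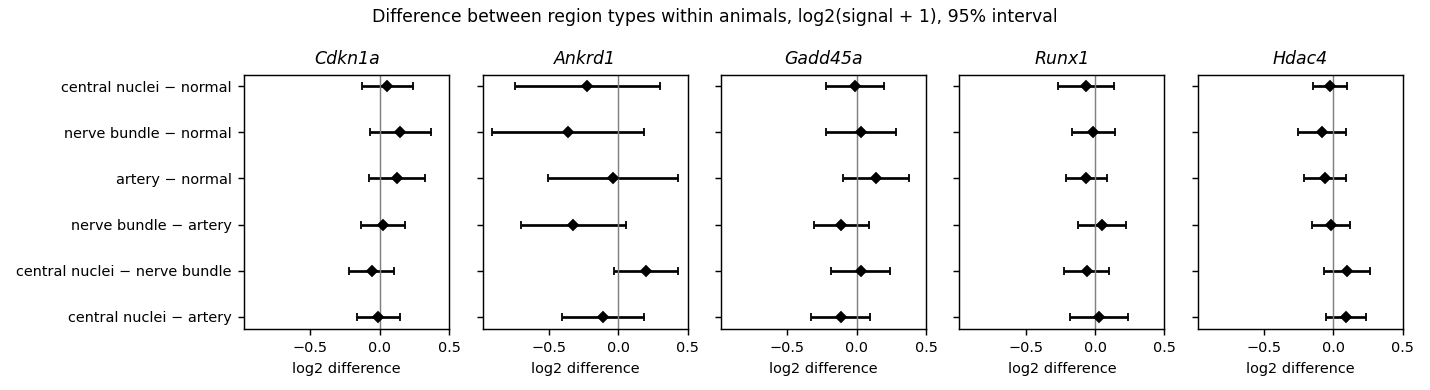
Difference in log2(signal + 1) between region types within animals (horizontal) for the 6 pairs of types and each gene, as the fitted mean with its 95% interval. Every interval included 0, and those of Ankrd1 were the widest in the comparisons with normal fibres.

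The labelled region types were separated by few of their own markers. In nerve bundle against normal fibres the gene that passed was Dcn, the matrix proteoglycan decorin of connective tissue (0.61 ± 0.0896, adjusted p = 0.0175). The summed signal of 6 Schwann cell markers in nerve bundle ran from 272 to 526.25 in controls (median 452) and from 354 to 783 in tau (median 535), against medians of 340 and 408 in normal fibres. Of the perineurial markers Itgb4 alone was present and it fell below the filter. Around arteries Acta2, the smooth muscle actin, was higher than in normal fibres (1.14 ± 0.166, adjusted p = 0.00422). Marker lists of several cell types differed in value between tau and control over the 3 types, with no marker passing, where 71.8% of all genes had a higher value in tau (median 0.0993). A higher value in tau was found for 12 of 12 neuromuscular junction markers (median 0.349), 5 of 5 Schwann cell markers (0.327), 5 of 6 slow fibre markers (0.416) and 7 of 7 satellite and regenerating fibre markers (0.144), and for 2 of 10 muscle fibre markers (-0.219) and 2 of 6 smooth muscle markers (-0.126). It was found for 6 of 9 endothelial, 5 of 9 fibro-adipogenic and tendon and 3 of 4 macrophage and leukocyte markers. The summed signal of the neuromuscular junction markers in nerve bundle ran from 663 to 1133 in controls and from 789 to 1674 in tau. Their part in the values of the 5 genes was not tested.

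Other genes of the same pathways were read beside the 5. Of 26 denervation response genes 18 were tested, 12 had a higher value in tau over the 3 types and 0 passed, with a median of 0.117 against 0.0993 for all genes, of which 71.8% had a higher value. The acetylcholine receptor subunits led them, Chrna1 at 0.48 ± 0.188, Chrne at 0.36 ± 0.139 and Chrnb1 at 0.27 ± 0.0965 (adjusted p = 0.872 each). Myog, the myogenic factor that drives receptor genes after denervation, stood at 0.02 ± 0.124, and the atrophy ubiquitin ligases Fbxo32 and Trim63 at -0.09 ± 0.495 and -0.24 ± 0.253. Of 19 tested genes on a list of p53 targets, 14 had a higher value (median 0.168). They were led by Ei24 at 0.33 ± 0.126, Zmat3 at 0.18 and Trp53, the gene of p53 itself, at 0.18. Of 12 genes of the Atf4 stress response 9 had a higher value (median 0.0510), with Cebpb at 0.25, Atf5 at 0.24 and Trib3 at 0.22. Of 7 genes on a list of Gadd45 and cyclin-dependent kinase inhibitor genes 4 had a higher value (median 0.0745). Cdkn2d at 0.24 and Cdkn2c at 0.15 encode inhibitors outside the family of p21. Cdkn1b, which encodes p27 of that family, was at -0.22.

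Around Hdac4, 7 of 15 genes of the class IIa deacetylase and MEF2 axis had a higher value (median -0.0356), with Prkd1, a kinase that exports these deacetylases from the nucleus, at 0.25 and Mef2d at -0.42. Around Ankrd1, 2 of 15 muscle ankyrin repeat and mechanical stress genes had a higher value (median -0.262), with the Z-disc proteins Flnc at -0.38 and Myot at -0.62 and Nrap at -0.53. Of the YAP and TEAD list, which holds the factors and their cofactors beside target genes, 10 of 13 had a higher value (median 0.133). Among them were Amotl1 at 0.43 ± 0.172, the cofactor Vgll2 at 0.31 ± 0.135 and Tead4, itself a TEAD factor, at 0.24. Of the Runx family and its partners 4 of 7 had a higher value (median 0.00825), with Runx3 at 0.35, Runx2 at 0.34 and Cbfb, the partner subunit, at -0.18. Of 10 genes of the calcium pump and its regulators 4 had a higher value (median -0.206), with the slow-fibre pump Atp2a2 at 0.33, Sri at 0.24 and the release channel Ryr1 at -0.49. None of these genes passed. Doublecortin family genes were not analysed here.

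In nerve bundle against normal fibres 8 of 18 denervation response genes had a higher value (median -0.0121), with Chrne at 0.75 ± 0.228, Chrna1 at 0.39 and Chrnd at 0.32 (adjusted p = 0.791 each), and no list gene of the 9 pathways passed. Around arteries against normal fibres 14 of 15 mechanical stress genes had a higher value and 2 passed, Fhl1, a LIM-domain sarcomere protein (1.09 ± 0.231, adjusted p = 0.0429), and Hspb7, a small heat shock protein of muscle (0.82 ± 0.178, adjusted p = 0.0467). Myh1, a fast myosin heavy chain, was higher there as well (1.06 ± 0.224, adjusted p = 0.0429), as was Dcn (0.46 ± 0.0926, adjusted p = 0.0369). Of 10188 genes, 35 (0.344%) passed around arteries against normal fibres and 1584 (15.5%) had an unadjusted p under 0.05. The share of all genes with a higher value is not given here for either comparison of this paragraph. The counts by direction are therefore not read as a result about these lists.

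The genes whose pattern was most like each member were read from Pearson's r over 47 means of animal and region type, each centred on its slide. These points share animals and depth, and r is given as a description. Cdkn1a was most like Dag1 (0.750), Ak3 (0.742) and Gpbp1 (0.728). Ankrd1 was most like Dupd1 (0.670), Zc3h8 (0.659) and Klhl40 (0.654), and without the normal fibre mean of T15, where all 3 were also high, r was 0.581, 0.342 and 0.376. Gadd45a was most like Eef1b2 (0.674), Mrps18a (0.655) and Ndufc1 (0.614), and Hdac4 like Eif4ebp2 (0.789), Naa50 (0.782) and Mapk14 (0.775). Runx1 was most like Olfr742 (0.795), Oacyl (0.790) and Olfr694 (0.781), and Olfr genes encode odorant receptors. Among the members themselves the highest r was between Cdkn1a and Runx1 (0.560), then Cdkn1a and Gadd45a (0.532) and Ankrd1 and Gadd45a (0.518, or 0.232 without the normal fibre mean of T15), and the lowest was between Runx1 and Hdac4 (-0.384, or -0.804 before centring on the slides).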

How the data were processed

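The authors deposited signal values, which per the file headers are probe counts normalised to the third quartile (Q3), linear and without background subtraction. The submitters' processing notes name the mm10 build, and no source used here names the aligner or counter. The low values of each region are whole multiples of a step (tolerance 0.02 of a step), which gave counts and depth and entered no test. Replicates are the animals named in the labels, and the 95% intervals are of the limma fits over animals.

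A gene was tested when it reached 1.5 times the negative probe in 10% of regions, which kept 10188 genes and left out 654. Values were taken as log2(signal + 1) and averaged over regions of a type within an animal. Tau was compared with control with labelled sex as covariate, region types as differences within animals (the pairing is the animal in the labels), and the tau effect between types as an interaction, with limma 3.58.1 in R 4.3.3 (trend, Benjamini-Hochberg adjustment over the tested genes, threshold 0.05); data.table (version 1.17.8) read the tables. A fold change is on this log2 scale: the pseudocount understates that of low genes, and background that differs between groups enters it. Differences by slide carry no covariate. The fits were tested on simulated data made of set differences, an animal term and noise. Those data held no slide effect and no shift of depth or background with treatment, so the test does not cover these features.

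The members, pathway lists and markers were chosen with earlier results of these data known. Named genes are all members, the 3 genes most like each, and up to 3 genes of each list with the smallest p in tau against control over 3 types and in nerve bundle against normal fibres, with list genes that passed, and not every gene so chosen is reported here; Acta2, Myog, Fbxo32, Trim63, the other genes of the T15 region and the list genes named around arteries were chosen after their values were seen. Alternatives changed the pseudocount to 5, the filter, the normalisation, the background treatment, the covariates, the regions used and the pairing, and left out each animal. Labelled sex with slide, and both with the negative probe, were added after seeing the data.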

Additional observations from a re-analysis of the deposited data

Results flagged for a closer look

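In 3 of 50 groups of animals examined, 1 animal lay far from the others of its group by Dixon's 95% criterion, which chance meets in about 1 in 20 groups. In tau normal fibres T15 stood at 8.79 for Ankrd1 on the log2(signal + 1) scale, with the next tau animal at 5.75, and at 6.63 for Gadd45a, with the next at 5.49. In control normal fibres C2 stood low for Cdkn1a, at 4.40 against 5.17 for the next control. T15's value comes from 1 region in both cases, and the tau differences without T15 or C2 are given with the results.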

How the results depend on the processing

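No member passed the threshold in any of 348 combinations of comparison and setting, and 129 of 1684 member values under alternatives had the other sign (Cdkn1a 10, Ankrd1 13, Gadd45a 31, Runx1 41, Hdac4 34). The lowest adjusted p was 0.0635, and 0.233 among settings without slide. Over the 3 types, leaving out each animal in turn moved Cdkn1a from 0.40 to 0.55, Ankrd1 from 0.42 to 0.92, Gadd45a from 0.29 to 0.61, Runx1 from 0.21 to 0.48 and Hdac4 from -0.44 to -0.09. Cdkn1a was 0.32 after quantile normalisation, 1.15 ± 0.746 with the negative probe subtracted, 0.33 ± 0.118 without regions of a Q3 count of 30 or less, and 0.37 ± 0.138 (adjusted p = 0.920) with labelled sex, slide and negative probe together; in the third of these Runx1 was 0.02. With no replicate block (the animal pairing dropped) the region type comparisons called 0 members, with adjusted p from 0.981 to 1.0 against 0.560 to 0.998 with it. Q3 counts of 10 to 300 per region limit all 5 genes, and on slide 2 Ankrd1 reached 1.5 times the negative probe in 2 of 25 regions and Cdkn1a and Gadd45a in 1 each.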

Other observations

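The normal fibre region of tau animal T15 carried more than Ankrd1. Of 10842 genes, 176 (1.62%) were above every other normal fibre region there, and 12 by more than 0.5 on the log2 scale. The 12 were Ankrd1, Gadd45a, 1110002E22Rik, Dhrs4, Loxl1 and the next 7. Hspa1a, an inducible heat shock protein of the Hsp70 family, read 186 against at most 32.8 in the other 19 regions. Hsp90aa1, the inducible cytosolic Hsp90, read 171 against 84.8, and Hspb1, the small heat shock protein Hsp27, read 1180 against 678. Atf3, a stress-induced transcription factor, read 94.3 against 62.5. Zc3h8 read 183 against 46.1, Dupd1 102 against 57.1 and Klhl40, a sarcomere-stabilising protein of the thin filament, 243 against 151. Outside the 12, Bag3, a co-chaperone of small heat shock proteins at the Z-disc, read 289 against 226 and Cryab, alpha-B crystallin, 2668 against 2089. Of 20 denervation response genes 5 were above every other region there, namely Chrna1, Tnfrsf12a, Cryab, Mt1 and Mt2. The same held for 3 of 12 neuromuscular junction genes (Chrna1 again, Ache and Colq), 2 of 9 endothelial genes (Kdr and Cldn5) and 1 gene each of the p53 (of 20), Atf4 (of 13), YAP and TEAD (of 13) and mechanical stress (of 15) lists, and for 0 genes of the other lists. Hspa1a in T15's 8 other regions ran from 20.8 to 33.1, Zc3h8 from 26.4 to 45.1 and Atf3 from 26.9 to 34.1. Some of the other genes were high elsewhere in T15 as well. In those 8 regions Dhrs4 reached 90.6, against 75.7 in the normal fibre region, and Bag3 reached 286. Dupd1 ran from 51.8 to 94.5 in them and Gadd45a from 39.6 to 76.2. These genes were chosen after their values were seen, and the region is a single one with no repeat in its animal.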
